A study of Rattus norvegicus with 146 samples.

Results

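The kidney was compared with the adrenal gland, the liver, the lung and the spleen in a panel of 92 transcripts measured by quantitative PCR in female rats. All 30 kidney samples of both strains were used. The series holds 116 further samples, namely 30 adrenal glands, 27 livers, 30 lungs and 29 spleens. The spontaneously hypertensive rat (SHR) is an inbred strain whose blood pressure climbs in early adult life, and the Wistar-Kyoto rat (WKY) serves as its normotensive control. The kidneys came from 15 SHR and 15 WKY rats, 3 of each strain at 8, 10, 12, 16 and 24 weeks of age, and no treatment is named in the labels. The other organs came from both strains at the same ages, except at 12 weeks, where WKY liver is absent and a WKY spleen is missing. The livers were of 15 SHR and 12 WKY rats, and the spleens of 15 SHR and 14 WKY rats. The PCR reports a cycle threshold (Ct), the cycle at which product is detected, so a lower Ct means more cDNA. For each sample the Ct of a gene was subtracted from the median Ct over its genes, which gives a level on a log2 scale where 1 unit is 1 cycle. A level is therefore relative to the panel and says nothing of the total RNA, and because each assay has its own efficiency the levels of different genes were not set against each other.

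The kidney sets blood pressure through salt and water excretion, which angiotensin II restrains. That peptide is cut from angiotensinogen, the last step by angiotensin-converting enzyme (Ace). Tubular cells carry out most of the metabolic work of the organ and express the oxidase Nox4. The labels name the organ and no part or cell type of it, so more cells of a type and more RNA per cell cannot be told apart.

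Median Ct values of the kidney samples lay between 9.40 and 11.9 cycles, and 50 of their 2760 values were missing. No kidney sample lay over 2 cycles from the median of its organ, whereas 6 samples of the other organs did: 3 adrenal gland, 2 spleen and 1 lung. One of these, a spleen of an SHR rat of 24 weeks, lacked 25 of the 92 genes. Without those 6 samples the same 12 genes were called highest in the kidney and the same 4 lowest as with them. Itpr1 had its highest mean level in the kidney. It was listed as a kidney marker with earlier results of these data known, so this is no independent check. Several markers of the other organs had lower means in the kidney than in their own organ. For Th, the first enzyme of catecholamine synthesis, kidney minus adrenal gland was -12.43 log2 units. For angiotensinogen (Agt), Arg1 and Hsd17b13, kidney minus liver was -7.98, -7.53 and -5.57, and for Ace kidney minus lung was -3.87. Fmo2, the other panel gene listed for the lung, was at 0.05 ± 0.16 there, which did not pass the test (limma, adjusted p = 0.805). Th was missing in 8 of 30 kidneys, and the highest of the other 22 was -2.60 in SHR rat 3 of 12 weeks, against 3.49 for the lowest adrenal gland.

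Most of the panel separated the kidney from each other organ. With limma's moderated test and a Benjamini-Hochberg adjusted p under 0.05, 71 of 92 genes differed from the adrenal gland (77.2%), 73 of 90 from the liver (81.1%), 69 of 92 from the lung (75%) and 74 of 91 from the spleen (81.3%). The kidney was above the adrenal gland in 36 genes (39.1%) and below it in 35 (38%). It was above the liver in 48 (53.3%) and below in 25 (27.8%), above the lung in 47 (51.1%) and below in 22 (23.9%), and above the spleen in 47 (51.6%) and below in 27 (29.7%). The lung split depended on the baseline. With 3 reference genes (Actb, Gapdh, Rpl13a) as baseline it was 17 above and 64 below, with unscaled Ct values 16 and 59, and with the 57 genes that had a value in every sample 42 and 31. Actb sat at the lowest Ct the table records, 2.5 cycles, in 27 of 30 lungs and 6 of 30 kidneys. The median difference of all genes from the lung was 0.53 in the main scaling, 0.33 with the complete genes, -0.94 with the reference genes and -0.97 with unscaled Ct values. With the complete genes the adrenal gland split was 44 above and 29 below, and the liver split with unscaled Ct values was 54 and 18. The 4 comparisons share the kidney samples and are not independent.

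Nox4, Spp1 and Hgd were among the largest excesses of the kidney. Against the adrenal gland, Nox4 was higher by 8.21 ± 0.24 (SE) and Hgd, an enzyme of tyrosine breakdown, by 7.22 ± 0.22. Against the liver, Nox4 was higher by 9.15 ± 0.25, Spp1 (osteopontin, a secreted matrix protein) by 7.79 ± 0.24 and Fmo2, a flavin monooxygenase, by 5.84 ± 0.17. Against the lung, Spp1 was higher by 7.91 ± 0.24 and Hgd by 7.79 ± 0.22. Against the spleen, Hgd was higher by 10.84 ± 0.22, Nox4 by 10.52 ± 0.25 and Spp1 by 9.14 ± 0.24. Hgd was nevertheless not a kidney maximum, since its level ran from 3.23 to 4.92 (median 4.19) in the kidney and from 4.39 to 5.64 (median 5.02) in the liver, ranges that overlap, with the kidney lower by 0.90 ± 0.22 (limma, adjusted p = 1.32e-04). Spp1 was likewise lower by 1.54 ± 0.24 in the kidney than in the adrenal gland (limma, adjusted p = 3.27e-09), where it sat at the lowest recorded Ct in 13 of 30 samples.

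On the low side, the adrenal gland exceeded the kidney most in Th, in the gap junction gene Gja1 (kidney minus adrenal gland -4.48 ± 0.12) and in the transcription factor Jun (-3.26 ± 0.11). The liver exceeded it most in Agt, Arg1 and Hsd17b13. The lung exceeded it most in the oestrogen receptor Esr2 (kidney minus lung -4.08 ± 0.24), then in Ace and in the chemokine Ccl5 (-3.12). The spleen exceeded it most in Il6 (kidney minus spleen -6.96 ± 0.21), in Cd86, a costimulatory molecule of antigen-presenting cells (-6.01), and in Ccl5 (-4.45).

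Of 89 genes that could be compared with all 4 other organs, 12 (13.5%) were above every one of them and 4 (4.49%) were below every one. Nts, Esr2 and Th had too few values for this. Among the 12 were Nox4, Itpr1, Ephb1, Adra1a, Agtrap, Timp3, Arg2, Thbs1, Ctsl, Plgf and Mif. The 4 were Ccl5, Cd86, Cd36 and Gja1. Fitted in 1 strain at a time, 11 genes were highest in the SHR kidney and 8 in the WKY kidney. Nox4, Itpr1, Ephb1, Adra1a, Agtrap, Thbs1 and Ctsl were called in each strain. Plgf, Timp3, Mif and Lipg were called in the SHR only, and Arg2 in neither strain alone. In no gene did every kidney sample lie above, or below, every sample of the other organs.

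**Figure D1:**
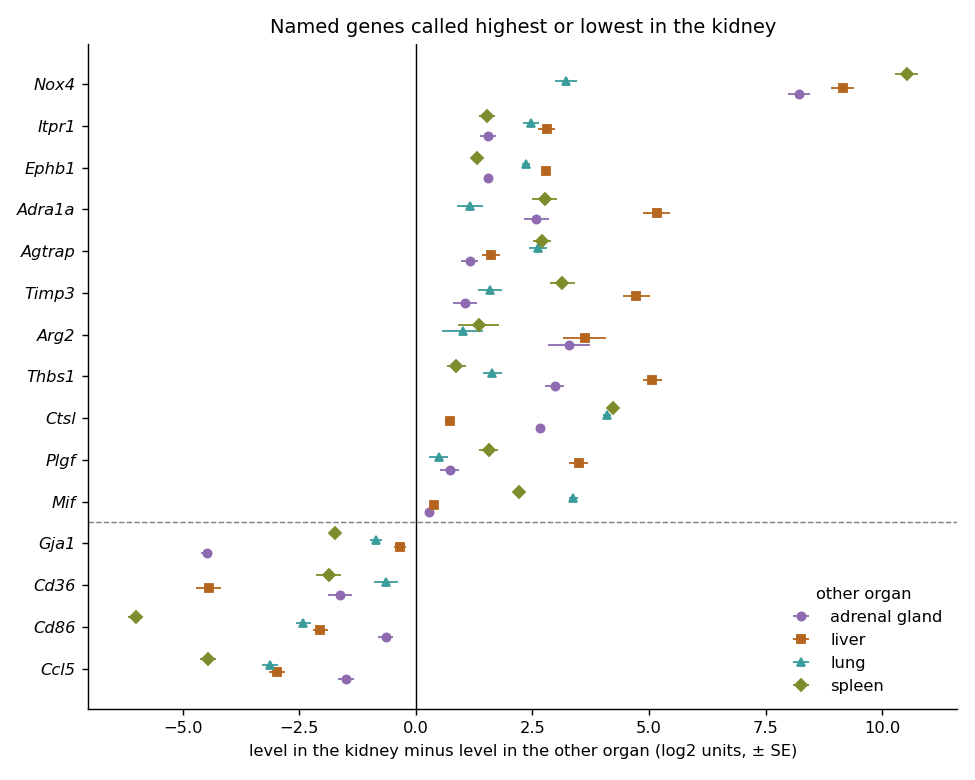
Difference in level between the kidney and each other organ (x axis, log2 units, points with SE bars from limma) for genes called highest and, under the dashed line, the 4 called lowest in the kidney. Nox4 lies 3.21 above its nearest organ, the lung, while Mif lies 0.28 above the adrenal gland.

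Nox4, which makes hydrogen peroxide, stood farthest above its next organ. Its level ran from 0.69 to 5.47 in the kidney (median 4.13), from -1.24 to 1.49 in the lung (median 0.74), and from -8.69 to -0.77 in the other 3 organs. The kidney and lung ranges overlapped through a single low kidney, that of WKY rat 1 of 16 weeks, at 0.69, and the next lowest, SHR rat 1 of the same age, at 1.71 already lay above every lung. The kidney exceeded the lung by 3.21 ± 0.24 (SE), 9.27-fold if each cycle doubles the product (limma, adjusted p = 2.66e-26), and was above it in 29 of 30 rats. The difference stayed called under all 14 other settings tried, with 1.72 as the smallest value.

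Itpr1, the type 1 inositol trisphosphate receptor that releases calcium from internal stores, ran from 4.08 to 5.34 in the kidney (median 4.61). In the spleen it ran from -3.53 to 4.21 (median 3.30), in the adrenal gland from 2.20 to 3.76, in the lung from 0.56 to 2.69 and in the liver from 1.27 to 2.29. The kidney and spleen ranges met only at their edges, and every adrenal gland, lung and liver lay below every kidney. The kidney exceeded the spleen by 1.52 ± 0.17, or 2.87-fold (limma, adjusted p = 1.19e-14), in 29 of 29 rats. The excess over the adrenal gland was 1.54. Without the 6 samples of outlying median Ct, the Itpr1 excess over the spleen was 1.25 ± 0.09 and still passed.

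Ephb1, an ephrin receptor, gave nearly the same numbers, 3.91 to 5.15 in the kidney (median 4.60) and 2.53 to 4.06 in the spleen (median 3.23). The kidney exceeded the spleen by 1.32 ± 0.08 (limma, adjusted p = 1.89e-33) in 28 of 28 rats. The Ct values of Itpr1 and Ephb1 differed by a mean of -0.056 cycles (SD 0.138) over 144 samples, and by no more than 0.458 in any. This was the smallest SD among all 4186 pairs of panel genes, against 0.321 for the next pair, Rela and Rhoa. The pair is therefore not independent evidence, though each gene is counted in the totals given here, and whether they read the same product was not tested.

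**Figure D2:**
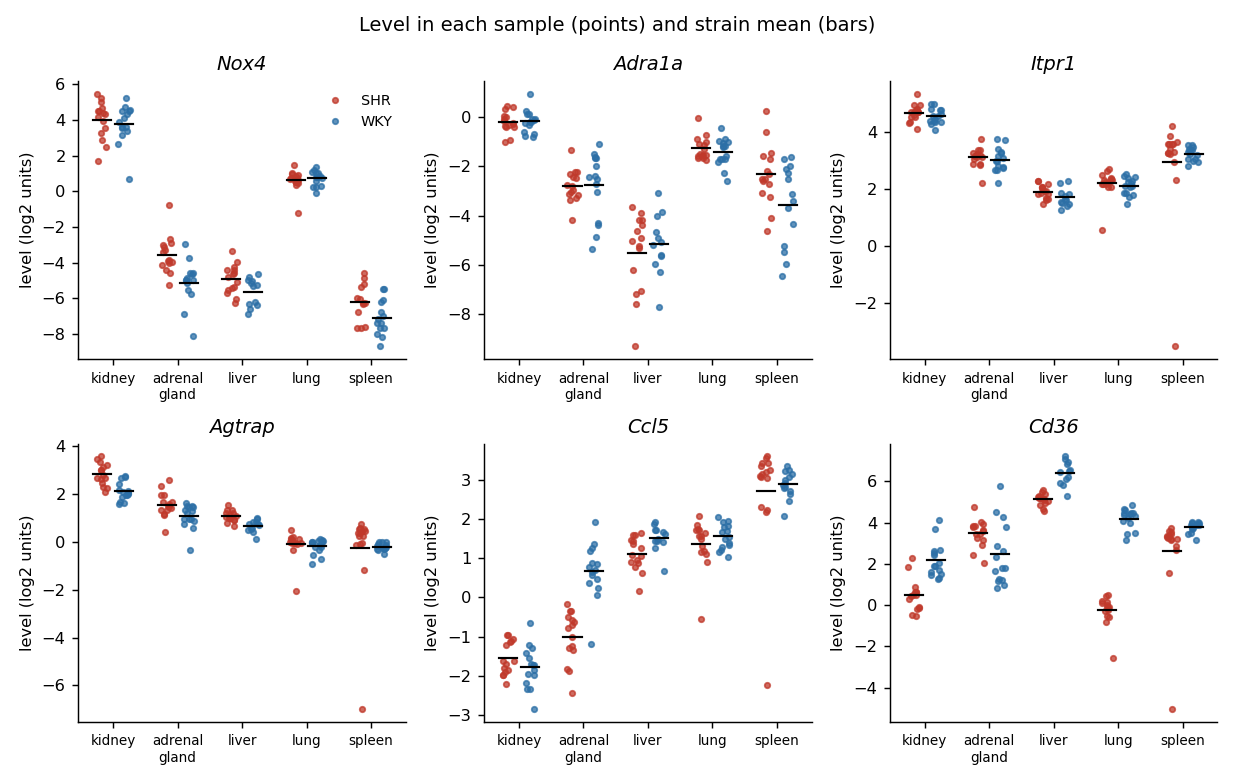
Level of 6 genes in every sample (y axis, log2 units above the sample's median gene) by organ, with SHR and WKY as separate columns of points and bars at the strain means. Kidney means lie above the other organs for Nox4, Adra1a, Itpr1 and Agtrap, with some overlap of points, and lowest for Ccl5, while Cd36 splits by strain in the lung.

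The genes of the angiotensin pathway described here did not share 1 pattern. Agtrap, which binds and internalises the angiotensin II type 1 receptor, ran from 1.58 to 3.57 in the kidney (median 2.44) and from -0.33 to 2.56 in the adrenal gland (median 1.37). The 2 ranges overlapped, and the kidney exceeded the adrenal gland by 1.16 ± 0.19, or 2.23-fold (limma, adjusted p = 1.15e-08), in 27 of 28 rats. The receptor itself, Agtr1a, lay between 0.45 and 2.63 in the kidney and was lower by 1.97 ± 0.12 than in the liver, though above the other 3 organs. Agt ran from -3.19 to 2.20 in the kidney, and its differences from lung (0.53 ± 0.35) and spleen (0.08 ± 0.35) did not pass the test. Kidney minus adrenal gland was -1.40 ± 0.35 for Agt (limma, adjusted p = 1.33e-04). Its SHR means were -1.97 in the kidney and 0.99 in the adrenal gland, and its WKY means -0.21 and -0.36. Ace, averaged over the strains, was above the adrenal gland by 1.24 ± 0.12, the liver by 4.13 ± 0.13 and the spleen by 0.70 ± 0.12. The strains were unlike in this. SHR means of Ace were -0.59 in the kidney, -0.65 in the spleen and -0.93 in the adrenal gland. WKY means were 0.91, -0.44 and -1.25 in the same order.

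Among the catecholamine and adrenergic genes, Adra1a, the alpha-1A adrenoceptor of vascular smooth muscle, was the kidney maximum. It ran from -0.997 to 0.95 in the kidney (median -0.20) and from -2.59 to -0.03 in the lung (median -1.40). The kidney was higher by 1.16 ± 0.27 (limma, adjusted p = 6.76e-05) in 28 of 30 rats. With the reference genes as baseline, or with unscaled Ct values, the sign turned to -0.30 and -0.34, neither past the threshold. The alpha-1D gene Adra1d was below the adrenal gland by 1.95 ± 0.21 and the spleen by 0.56 ± 0.21. The beta-1 gene Adrb1 was above adrenal gland, liver and spleen but below the lung by 0.62 ± 0.17.

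The vasoactive peptides had no kidney maximum among the 4 genes that could be placed. The natriuretic peptide receptor Npr1 was below the adrenal gland by 3.10 ± 0.13 and the lung by 0.78 ± 0.13. Apelin (Apln) was below the lung by 2.86 ± 0.20 and above the other 3 organs. Hcrtr1 had its highest mean in the kidney, but its 0.23 ± 0.30 over the lung did not pass the test, and Uts2 passed only against the liver. Nts (neurotensin) was below the adrenal gland and the liver, with kidney differences of -1.92 ± 0.53 and -1.57 ± 0.56, and above the lung by 2.21 ± 0.54. Many Nts values were missing, and only 14 rats had it in both kidney and adrenal gland and 12 in both kidney and lung. Of the steroid list, Esr1 was below the adrenal gland by 2.08 ± 0.18 and above the lung by 1.31 ± 0.18, and Cyp19a1 (aromatase) was 0.22 ± 0.42 above the lung, which did not pass.

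Timp3, Thbs1 and Plgf act in the matrix and on vessels. Timp3, an inhibitor of matrix proteases, ran from -7.45 to -4.08 in the kidney and from -8.19 to -5.03 in the adrenal gland, and was higher in the kidney by 1.06 ± 0.26 (limma, adjusted p = 1.06e-04) in 22 of 28 rats. In the SHR alone this was 1.65, and in the WKY alone it was 0.48 and did not pass (limma, adjusted p = 0.167). Thbs1 (thrombospondin 1) ran from 2.51 to 4.16 in the kidney and from -4.44 to 3.31 in the spleen, and was higher by 0.87 ± 0.20 (limma, adjusted p = 6.36e-05) in 25 of 29 rats. Without the 6 samples of outlying median Ct the Thbs1 value was 0.57 and still passed. Neither Timp3 nor Thbs1 was called highest of the 5 organs with the reference genes as baseline or with unscaled Ct values. The Timp3 excess over the adrenal gland still passed in both, at 1.23 and 1.14. The Thbs1 excess over the spleen passed with the reference genes (0.67) and missed the threshold with unscaled Ct values (0.66, limma, adjusted p = 0.0598). Plgf, the placental growth factor, ran from -2.38 to 0.56 in the kidney and from -2.41 to 0.29 in the lung. Its excess of 0.49 ± 0.20 (limma, adjusted p = 0.0222), in 19 of 30 rats, was lost without SHR rat 1 of 16 weeks and turned to -0.97 with the reference genes and -1.01 with unscaled Ct values. With the complete genes as baseline the Plgf excess was 0.29 and did not pass (limma, adjusted p = 0.189). All 3 genes had overlapping ranges.

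Ctsl, a lysosomal protease, ran from 6.19 to 7.74 in the kidney and from 5.53 to 6.76 in the liver, and the kidney was higher by 0.73 ± 0.10 (limma, adjusted p = 6.25e-12) in 27 of 27 rats although the ranges overlapped. Arg2, the mitochondrial arginase, ran from -2.82 to -0.86 in the kidney and from -5.72 to 0.03 in the lung. Its excess of 1.00 ± 0.44 (limma, adjusted p = 0.0344), in 24 of 30 rats, was lost without SHR rat 2 of 10 weeks, SHR rat 1 of 16 weeks or WKY rat 3 of 24 weeks, and turned to -0.46 with the reference genes and -0.49 with unscaled Ct values. With the complete genes as baseline the Arg2 excess was 0.80 and did not pass (limma, adjusted p = 0.0975). With missing values at the highest Ct it also missed the threshold (limma, adjusted p = 0.101). Mif, a cytokine with enzyme activity, ran from 3.20 to 4.21 in the kidney and from 2.66 to 4.17 in the adrenal gland. The excess of 0.28 ± 0.09 (limma, adjusted p = 0.00254), in 22 of 28 rats, was 0.10 in the WKY alone and did not pass there (limma, adjusted p = 0.429). With unscaled Ct values Mif was 0.36 higher and also missed the threshold (limma, adjusted p = 0.132).

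Ccl5 stood farthest below its next organ among the 4 kidney minima. This chemokine, which attracts T cells, ran from -2.85 to -0.65 in the kidney (median -1.71), from -2.43 to 1.93 in the adrenal gland (median -0.26), and up to 3.597 in the spleen. The kidney was lower than the adrenal gland by 1.49 ± 0.17, or 2.81-fold (limma, adjusted p = 2.48e-14), in 25 of 28 rats. In the SHR alone the difference was -0.53 and missed the threshold (limma, adjusted p = 0.0952), and the adrenal gland of that strain was itself 1.68 lower than that of the WKY. Cd86 ran from -8.47 to -5.11 in 29 kidneys and from -7.21 to -5.04 in the adrenal gland, lower by 0.64 ± 0.16 (limma, adjusted p = 2.17e-04) in 17 of 26 rats. The Cd86 call was lost in the WKY alone (-0.39, limma, adjusted p = 0.114), with missing values at the highest Ct (-0.59, limma, adjusted p = 0.224) and with unscaled Ct values (-0.52, limma, adjusted p = 0.0604).

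Of the 11 cytokine and chemokine genes, 9 were below the spleen and 2 above it, beside 27 below and 47 above among the 91 genes tested. Il6 (-6.96), Il10 (-3.93) and Il1b (-3.22) were among the 9, and the 2 above were Spp1 and Mif. Against the lung 7 of the 11 were lower and 2 higher, beside 22 lower and 47 higher of 92. Against the adrenal gland 3 were lower and 3 higher, beside 35 and 36 of 92, and against the liver 5 were lower and 4 higher, beside 25 and 48 of 90. The leukocyte markers Ebf1 and Rgs1 were below the spleen by 1.87 ± 0.16 and 3.41 ± 0.20, and parted in the other organs. Ebf1 was above the lung by 1.10 ± 0.16 and the liver by 3.91 ± 0.19, and did not differ from the adrenal gland (0.07 ± 0.16). Rgs1 was below the lung by 2.27 ± 0.20 and the adrenal gland by 1.06 ± 0.20, and did not differ from the liver (0.06 ± 0.21). The smooth muscle and endothelial markers did not go 1 way. Acta2 and Npr1 were below the lung and above the liver. Lipg was 5.08 ± 0.17 above the liver, and its 0.18 ± 0.17 over the lung did not pass the test. Against the spleen Npr1 and Lipg were higher by 1.46 ± 0.13 and 2.12 ± 0.17, and Acta2 was lower by 0.52 ± 0.22.

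Cd36, a fatty acid transporter, and Gja1 completed the minima. Cd36 ran from -0.53 to 4.12 in the kidney and from -2.57 to 4.85 in the lung, a difference of -0.64 ± 0.26 (limma, adjusted p = 0.0214) with the kidney lower in 20 of 30 rats. The lung values formed separate groups, -2.57 to 0.49 in the SHR and 3.15 to 4.85 in the WKY, and the sign turned in the SHR alone (0.74, limma, adjusted p = 0.0949) and was -2.01 in the WKY alone. Cd36 was not called lowest in either strain alone, and the WKY kidney mean of 2.19 lay beside 2.46 in the WKY adrenal gland. Gja1, written Gja in the Ct table, ran from 0.21 to 1.70 in the kidney and from 0.61 to 1.98 in the liver, lower by 0.34 ± 0.12 (limma, adjusted p = 0.0103) in 20 of 27 rats, and it stood at 0.05 with unscaled Ct values. In the SHR alone it was -0.17 and did not pass (limma, adjusted p = 0.391), and in the WKY alone it was -0.50.

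The place of the kidney was next compared between the strains, as the kidney level minus the mean of the other 4 organs. This difference was not equal in SHR and WKY for 11 of 89 genes (12.4%), and 19 had an unadjusted p under 0.05. With Ct values as they are none passed, and the 7 genes described next kept their signs there. Ace, which makes angiotensin II, gave the smallest p. Its level in the kidney ran from -1.68 to 0.004 in the SHR (median -0.48) and from 0.06 to 1.54 in the WKY (median 0.90), without overlap. The SHR mean was lower by 1.50 in the kidney, and between lower by 0.35 and higher by 0.32 in the other organs. Relative to the other organs the kidney stood at -0.14 in the SHR and 1.24 in the WKY, a difference of -1.37 ± 0.19 (limma, adjusted p = 7.12e-09).

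Arg1, the cytosolic arginase, ran from -2.01 to -0.21 in SHR kidneys and from -0.93 to 0.64 in WKY kidneys, overlapping ranges with means 1.16 apart, while its strain differences in the other organs ran from 0.04 to 0.66. The kidney relative to the other organs differed by -1.47 ± 0.28 (limma, adjusted p = 2.00e-05).

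For the next genes the other organs moved as well. The chemokine receptor Ccr1 was 0.33 higher in SHR than WKY kidneys and 0.20 to 1.01 lower in the other organs (difference 0.91 ± 0.21; limma, adjusted p = 6.76e-04). Lipg, endothelial lipase, was 0.38 higher in SHR kidneys and 1.30 lower in SHR adrenal glands (difference 1.00 ± 0.26; limma, adjusted p = 0.00292). Npr1 was 0.51 higher in SHR kidneys (difference 0.78 ± 0.21) and Tlr4, a receptor for bacterial lipopolysaccharide, 0.32 higher (difference 0.52 ± 0.14), each with a limma adjusted p of 0.00292. Timp3 differed by 1.54 ± 0.41 (limma, adjusted p = 0.00333), with a strain difference of -2.77 in the liver, where 7 of 27 values were missing, all of them in SHR. Fmo2 and Ccl5 were also called. By contrast Ephx2, the soluble epoxide hydrolase, was lower in SHR by 4.49 in the kidney and by 3.98 to 5.28 in the other organs, and was not among the 11.

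**Figure D3:**
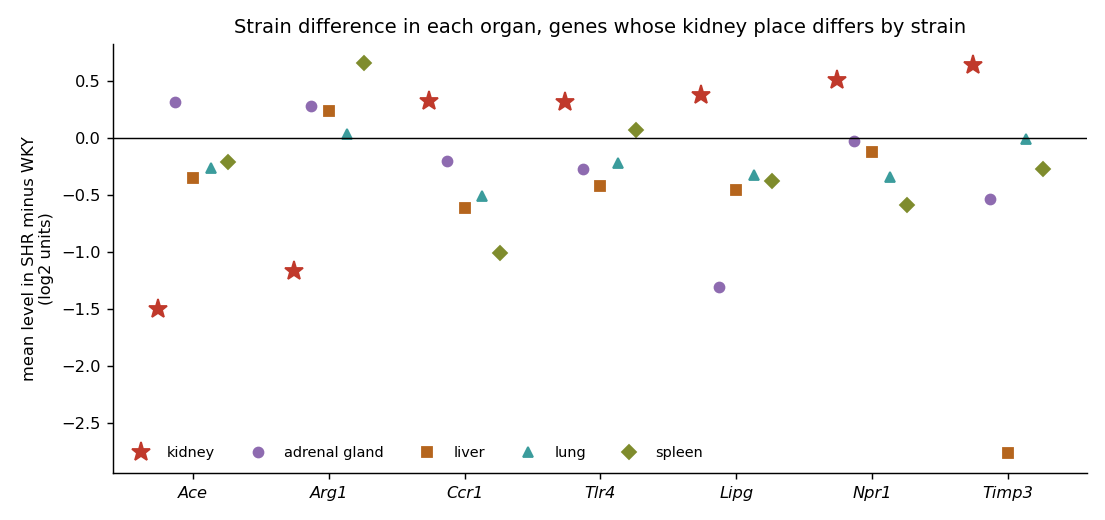
Difference between strain means, SHR minus WKY (y axis, log2 units), in each of the 5 organs for 7 of the genes with a strain difference in the place of the kidney. The kidney stars for Ace (-1.50) and Arg1 (-1.16) lie below every other organ, and those of the other 5 genes lie above.

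Age was tested last. Within the kidney 1 of 89 genes (1.12%) changed with age, and 18 had an unadjusted p under 0.05. This was Apln, the gene of the vasodilator peptide apelin, which fell (limma F test over the 5 ages, adjusted p = 0.00367). At 8 weeks the level was -1.25 ± 0.34 (SD, n = 6), with samples from -1.68 to -0.71. At 10 and 12 weeks it was -1.63 ± 0.45 and -1.75 ± 0.38. At 16 and 24 weeks it was -2.50 ± 0.55 and -2.59 ± 0.57, with samples from -3.29 to -1.82 and from -3.54 to -1.96. Samples of 8 and 24 weeks did not overlap. Relative to adrenal gland, lung and spleen, no gene of 90 changed with age by limma (0%), and 9 had an unadjusted p under 0.05. Apln there had an unadjusted p of 0.0266 (limma, adjusted p = 0.342), so a change particular to the kidney was not shown.

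**Figure D4:**
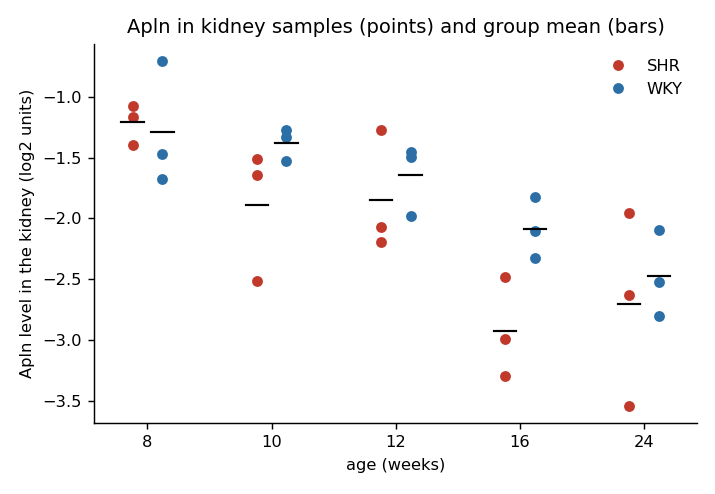
Level of Apln in the kidney (y axis, log2 units) at each age (x axis, weeks, evenly spaced), 1 point per rat, with bars at the mean of each strain. The mean of both strains went from -1.25 at 8 weeks to -2.59 at 24 weeks.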

How the data were processed

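Per the labels, total RNA was isolated by spin column. After reverse transcription came 12 cycles of targeted pre-amplification and 30 cycles of dye-based qPCR on 2 microfluidic arrays with intron-spanning primers. The authors deposited non-normalized Ct values, which were used here, and 2 derived tables that were not used because the first is centred within each organ. The sources used here do not say how Ct was set or which sample ran on which array, so a difference between arrays could not be examined. Of 13432 values, 305 (2.27%) were missing and 120 sat at 2.5 cycles. The number of samples limits the precision.

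Level was sample median Ct minus gene Ct, with no imputation. limma 3.58.1 in R 4.3.3 fitted organ-by-strain means over all samples, for genes with at least 3 values in each group compared, with two-sided tests and Benjamini-Hochberg adjustment over genes. A gene was called highest (or lowest) when all 4 contrasts had the same sign and passed. Within the kidney the age test fitted strain-by-age groups. Relative to adrenal gland, lung and spleen it fitted organ-by-age groups with a strain term in each organ. The liver was left out of it, having no WKY sample of 12 weeks. Both age tests needed at least 2 values in each group. The fit was tested on simulated data with independent normal values, a shared spread per gene and shifts of the kidney only. Those data held no differences among the other organs, no outlying samples and no shared rats. Replicates are rats, and the organs of 1 rat share its number in the labels, so the rat pairs them (correlation within rats 0.062 over all genes). In the adrenal gland 2 columns of WKY rats of 12 weeks share a header and were used by group only. Genes named are those called highest or lowest, the 3 most different each way per organ, those called for strain or age (the 8 with the smallest p) and members of the blood pressure and marker lists. The members and lists were chosen with earlier results of these data known. The symbol Gja was taken to mean Gja1, which was not checked. With Gja so read, symbols matched RefSeq for 90 genes, 1 as a synonym (Plgf) and 1 not (Ilrn). Some genes of the panel entered the fits and counts and are not reported here by name.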

Additional observations from a re-analysis of the deposited data

Results flagged for a closer look

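The following 7 genes had a kidney level, relative to the mean of the other 4 organs, that differed between SHR and WKY by the test of the difference itself, limma's organ-by-strain contrast. SHR minus WKY was -1.37 for Ace and -1.47 for Arg1. It was 0.91 for Ccr1, 0.52 for Tlr4, 1.00 for Lipg, 0.78 for Npr1 and 1.54 for Timp3. All 7 kept their sign without each rat in turn and under the 7 other settings. With unscaled Ct values none of the 7 passed. With missing values at the highest Ct, Arg1 (limma, adjusted p = 0.0552) and Lipg (limma, adjusted p = 0.0984) were also lost, and with the 3 reference genes Tlr4 was (limma, adjusted p = 0.0843). No group of this report holds 4 to 10 samples of 1 organ, strain and age, so single samples were not tested as outliers.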

How the results depend on the processing

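Each result was recomputed with other baselines, with floor and missing values treated otherwise, in other groupings and without each rat in turn. The 71 genes differing from the adrenal gland and the 74 from the spleen became 47 and 49 when a difference of at least 1 log2 unit was also asked, and 1 gene was then lowest. Genes highest in the kidney, 12 in the main analysis, were 7 with the 3 reference genes as baseline and 6 with unscaled Ct values, and 10 to 12 without each rat. Genes lowest, 4 in the main analysis, were 8 with the reference genes, 1 in the SHR alone and 4 without every rat in turn. With the reference genes and with unscaled Ct values, the kidney minus lung values turned to -0.46 and -0.49 for Arg2, -0.30 and -0.34 for Adra1a, and -0.97 and -1.01 for Plgf. Gja1 turned to 0.046 with unscaled Ct values and Cd36 to 0.74 in the SHR alone. Genes with a strain difference, 11 in the main analysis, were 0 with unscaled Ct values and 9 to 12 without each rat. Genes changing with age relative to the other organs were 1 with the baseline of complete genes and 0 to 2 without each rat, with 2 when SHR rat 3 of 8 weeks was left out. Genes changing with age within the kidney were 2 with the reference genes, 58 with unscaled Ct values and 2 with missing values at the highest Ct, and 1 to 6 without each rat, with 6 when SHR rat 3 or WKY rat 2 of 12 weeks was left out. The cause of these shifts was not tested.

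With the rat as a random replicate block (correlation within rats 0.062) 12 genes were highest and 4 lowest. With a fixed replicate block they were 12 and 3, where Cd36 stood at -0.51 (limma, adjusted p = 0.212). The fixed fit also kept only the 27 rats with all 5 organs known and had organ terms that did not vary by strain. With organ groups only and no block, Cd36 missed the threshold too (-0.64, limma, adjusted p = 0.137). The effect of the fixed block alone was not tested. No other of these calls changed in the block fits. Missing values in Nts, Esr2, Th, Timp3, Ebf1 and Il6 limit those comparisons, and values at the lowest recorded Ct understate high levels.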
